A study of Mus musculus with 8 samples.

Results

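The genes described here are 42 genes of mitosis and cytokinesis, chosen by name for their roles in chromosome condensation, spindle assembly, kinetochore function, the spindle checkpoint and the final separation of daughter cells. Of these, 40 had a probe set that carries their name alone, out of 17097 genes named on the array. Ccnb1 and Nuf2 had none under a single gene name and were not analysed here. Each gene was represented by its probe set with the highest mean over the 8 arrays. Expression had been measured on 8 single-channel arrays of sorted mouse CD4+CD25+ regulatory T cells, 4 labelled WT and 4 labelled CD4(cre)Raptor(fl/fl) (RaptorKO below), all on the C57Bl/6J background. In RaptorKO mice a Cre recombinase under control of Cd4 removes a loxP-flanked Rptor gene, which encodes the Raptor subunit of the mTORC1 kinase. Cd4-driven Cre acts from the thymus onward, so conventional T cells of these mice carry the deletion too. Cells of both groups came from spleen and peripheral lymph nodes and went to RNA extraction directly after sorting; age and sex are not stated in the labels used here. The comparison asks whether transcripts that mark dividing cells differ between the genotypes.

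Mitotic genes are transcribed in a wave that begins in late S phase and peaks in G2 and M phase. The factors B-MYB, FOXM1 and the MuvB complex drive this wave in cycling cells, and the DREAM complex represses the same genes in resting cells. Cyclin-dependent kinase 1 with its cyclins starts mitosis, the kinetochore and spindle checkpoint hold anaphase until chromosomes are attached, and the central spindle and contractile ring divide the cell. Regulatory T cells in the resting animal include a cycling fraction, so these transcripts in a bulk sample follow both the share of cells in G2 and M and the level per cell. In these arrays a change in the share of cycling cells and a change in RNA per cycling cell cannot be told apart.

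The promoters of these genes share sequence features that the choice of members did not use. The element shown for this purpose is the cell cycle homology region, known as a binding element of MuvB complexes and searched as TTTGAA or TTTAAA, beside the CCAAT box, a binding element of NF-Y searched as CCAAT, both on either strand. RefSeq promoter windows of build GRCm38.p6, from 250 bases before to 50 bases after a transcription start, were held for 35 of the 42 genes, in 37 windows. The first motif was found in 31 of the 37 windows (83.8%), against 27.6% of 32851 windows of all genes. The CCAAT motif was found in 28 of 37 windows (75.7%), against 37.4% of all windows, and both motifs together in 26 of 37 (70.3%), against 10.7%. The windows printed below belong to the members with the smallest p in the genotype comparison for which a window was held, Cdc25b, Kif23 and Prc1; capitals mark the motif matches. The windows lie at chr2:131186698-131186997 on the plus strand for Cdc25b, chr9:61946750-61947049 on the minus strand for Kif23 and chr7:80294201-80294500 on the plus strand for Prc1, each printed 5′ to 3′ along the gene.
Cdc25b: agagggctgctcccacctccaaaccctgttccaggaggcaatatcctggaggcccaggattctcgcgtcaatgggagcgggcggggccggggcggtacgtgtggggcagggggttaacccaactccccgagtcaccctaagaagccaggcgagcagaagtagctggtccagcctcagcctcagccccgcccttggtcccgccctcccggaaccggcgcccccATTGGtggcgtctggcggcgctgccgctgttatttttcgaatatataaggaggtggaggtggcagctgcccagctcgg
Kif23: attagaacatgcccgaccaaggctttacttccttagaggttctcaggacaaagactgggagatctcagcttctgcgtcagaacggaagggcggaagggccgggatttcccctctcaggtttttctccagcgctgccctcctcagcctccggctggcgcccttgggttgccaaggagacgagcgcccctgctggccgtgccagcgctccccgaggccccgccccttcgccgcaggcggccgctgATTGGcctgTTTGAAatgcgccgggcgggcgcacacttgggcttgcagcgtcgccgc
Prc1: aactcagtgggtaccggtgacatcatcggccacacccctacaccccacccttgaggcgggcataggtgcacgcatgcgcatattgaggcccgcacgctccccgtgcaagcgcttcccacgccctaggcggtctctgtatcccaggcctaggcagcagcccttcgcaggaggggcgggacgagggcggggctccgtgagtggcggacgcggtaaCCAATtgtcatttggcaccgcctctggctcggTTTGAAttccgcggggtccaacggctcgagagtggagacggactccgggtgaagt
In Kif23 the CCAAT match (ATTGG) began 7 bases before the start site and TTTGAA began at base 3 after it. In Prc1 the CCAAT match began 37 bases before the start and TTTGAA 5 bases before it. In Cdc25b an ATTGG began 28 bases before the start and neither TTTGAA nor TTTAAA was in the window on either strand. Prc1 has a further window that overlaps the one shown and holds the same matches. These matches are letters in a window and were not tested as binding sites.

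The cells carried the transcripts of regulatory T cells on every array. The mean log2 value of 8 markers, Foxp3, Il2ra, Ctla4, Ikzf2, Tnfrsf18, Ikzf4, Cd4 and Cd3e, ranged from 10.43 to 10.57 over the WT arrays and from 10.41 to 10.58 over the RaptorKO arrays, with 4 markers higher and 4 lower in mean and 0 called (Ctla4 -0.32, Ikzf2 0.21). Ctla4 passed with an intensity trend (adjusted p = 0.0496). Rptor itself read 6.83, 6.85, 7.03 and 6.75 in WT 1 to WT 4 and 6.63, 6.47, 6.50 and 6.95 in RaptorKO 1 to RaptorKO 4. The arrays overlapped through RaptorKO 4, and the difference was -0.23 (95% interval -0.49 to 0.04, limma adjusted p = 0.491). With all Rptor probe sets averaged the difference was -0.32 (limma adjusted p = 0.119). The labels do not give the exons between the loxP sites, and the probe sets may lie outside them, so the Rptor level does not check the genotype labels. Replicates 1 and 2 of both genotypes stood apart from replicates 3 and 4 in sex-linked transcripts: Xist read 10.88 to 11.18 in the former and 5.04 to 5.62 in the latter, and the Y-linked Kdm5d 3.74 to 4.39 against 8.22 to 8.51. Each set holds both genotypes, and results are given within each set where they differ. Macrophage and myeloid markers also differed in mean between genotypes and between sets. Of 13 listed, 12 were named and 9 passed the low-signal filter, with 8 higher and 1 lower in mean in RaptorKO and 0 called; their mean log2 value ranged from 5.40 to 6.34 in WT and from 6.01 to 6.69 in RaptorKO, the smallest p belonged to Lyz2 (0.61) and Tyrobp (0.59), and Adgre1 and Itgam were under the filter on every array. With a term for replicate set 1 myeloid marker was called, higher in RaptorKO, and within replicates 3 and 4 Tyrobp was (0.92, adjusted p = 0.0371). Their part in the values that follow was not tested beyond the covariate fit given below.

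No mitosis gene passed the test between genotypes, and most differences were small, as they were over all tested genes. Testing required a value above the 40th percentile of all probe sets of an array on 4 or more of the 8 arrays, and a gene was called at an adjusted p under 0.05 over all 11413 tested genes. Of the 40 named members 35 were tested, 28 of them above that percentile on all 8 arrays and 0 through the arrays of 1 genotype alone, and 0 were called by limma, against 1.96% of all tested genes. At an unadjusted p under 0.05 there were 5 members, 4 higher in RaptorKO (Kif23, Prc1, Aurkb and Nusap1) and 1 lower (Cdc25b), against 13.0% of all tested genes, so 5 of 35 is near the background. The groups did not overlap for 1 of the 35, Cdc25b, against 8.82% of all tested genes. The difference, RaptorKO minus WT, was below 0.2 in size on the log2 scale for 25 of the 35 genes and below 0.1 for 15. The 95% intervals of the fit lay between -1 and 1 for all 35 tested genes, so a change of 2-fold or more was outside each gene's own interval, and between -0.5 and 0.5 for 21 of them.

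**Figure D1:**
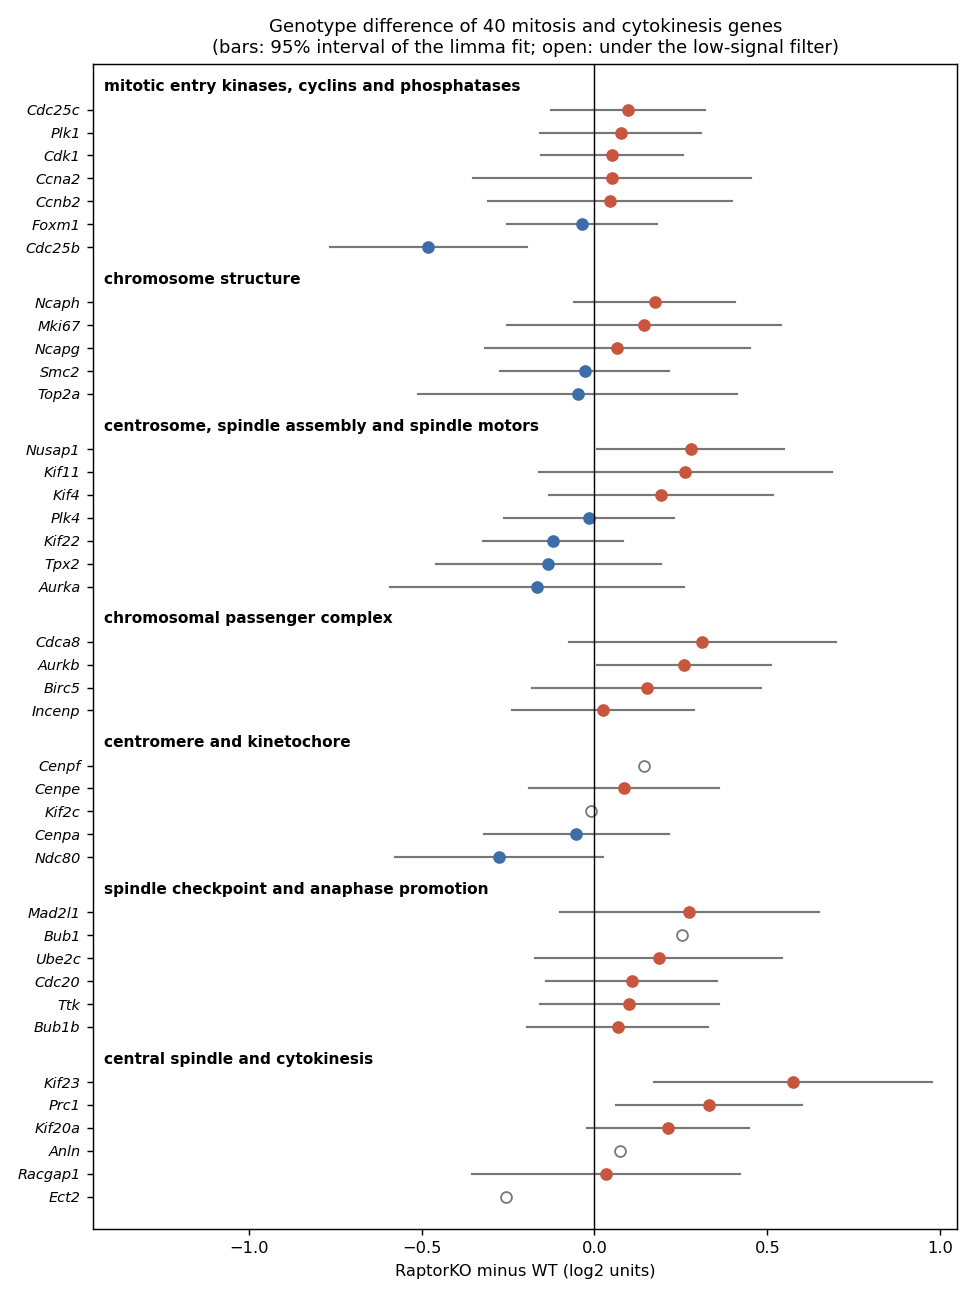
Difference between genotypes (RaptorKO minus WT, log2 units, x axis) for the 40 named genes, grouped by role; points are means of 4 against 4 arrays, bars are 95% intervals of the limma fit, and open points are the 5 genes under the low-signal filter, which were not tested. Most intervals span 0; those of Cdc25b, at -0.48, and of Kif23, Prc1, Aurkb and Nusap1 do not.

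The differences were more often positive than negative, without any single gene passing. Among the 35 tested genes 25 had a higher mean in RaptorKO and 10 a lower one, and the median difference was 0.076, with quartiles of -0.022 and 0.19. Over all 11413 tested genes the median was -0.0092, the quartiles were -0.12 and 0.10, and 47.6% were positive. With no filter, over all 40 named genes, 28 were positive and 12 negative, with a median of 0.075. The member median was 0.042 without RaptorKO 2 and 0.12 without RaptorKO 1, and 0.043 with the myeloid markers as a covariate. These counts describe the list and carry no test of it.

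**Figure D2:**
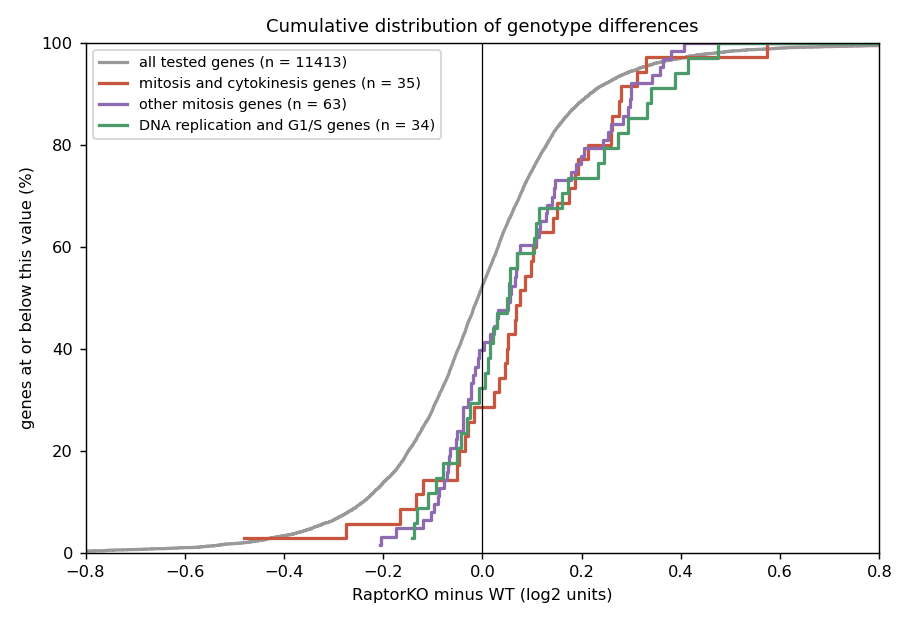
Cumulative share of genes (y axis, percent) at or below each genotype difference (x axis, RaptorKO minus WT, log2 units) for the 35 tested mitosis and cytokinesis genes, 63 other mitosis genes, 34 DNA replication and G1/S genes and all 11413 tested genes. The curve of all genes crosses 50% near its median of -0.0092, and the 3 cell cycle curves lie to its right there, with medians of 0.076, 0.055 and 0.051.

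Among the genes that start mitosis, Cdc25b had the smallest p of all members, and the other 6 tested differed by less than 0.1 in size. Cdc25b encodes a phosphatase that activates cyclin-dependent kinases at mitotic entry. It read 6.64, 6.34, 6.30 and 6.66 in WT 1 to WT 4 and 5.75, 6.23, 6.06 and 5.98 in RaptorKO 1 to RaptorKO 4. Every RaptorKO array lay below every WT array, though RaptorKO 2 and WT 3 were close. The means were 6.49 ± 0.19 and 6.01 ± 0.20 (SD, n = 4 each), a difference of -0.48 (SE 0.13, 95% interval -0.77 to -0.19), or 1.40-fold. It did not pass over all genes (limma, unadjusted p = 0.00333, adjusted p = 0.100). The difference was -0.50 in replicates 1 and 2 and -0.46 in replicates 3 and 4, and it stayed between -0.56 and -0.40 under 22 alternative settings, with adjusted p from 0.0516 to 0.448. Cdc25c, the related phosphatase, read 4.76 to 5.12 in WT and 4.99 to 5.06 in RaptorKO, close to the filter's percentile (4.69 to 4.81), and differed by 0.10 (adjusted p = 0.790).

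Cdk1 encodes the kinase that drives cells into mitosis. It read 5.77, 5.84, 5.73 and 5.88 in WT against 5.77, 5.95, 5.90 and 5.81 in RaptorKO, for a difference of 0.052 (95% interval -0.15 to 0.26, adjusted p = 0.896). The arrays of both genotypes overlapped. Ccna2 and Ccnb2, the A-type and B-type cyclins that activate CDK1, differed by 0.050 (95% interval -0.35 to 0.45) and 0.045 (-0.31 to 0.40). Plk1, the polo-like kinase that promotes mitotic entry and spindle formation, read 5.54, 5.41, 5.55 and 5.48 in WT and 5.60, 5.37, 5.55 and 5.77 in RaptorKO. Its difference was 0.076 (adjusted p = 0.852), and the highest value of all 8 was that of RaptorKO 4. Foxm1, a transcription factor of the mitotic programme, differed by -0.035 (95% interval -0.25 to 0.18, adjusted p = 0.938). Its values were 6.59, 6.58, 6.47 and 6.64 in WT and 6.60, 6.40, 6.48 and 6.67 in RaptorKO, so the WT arrays fell inside the range of RaptorKO.

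**Figure D3:**
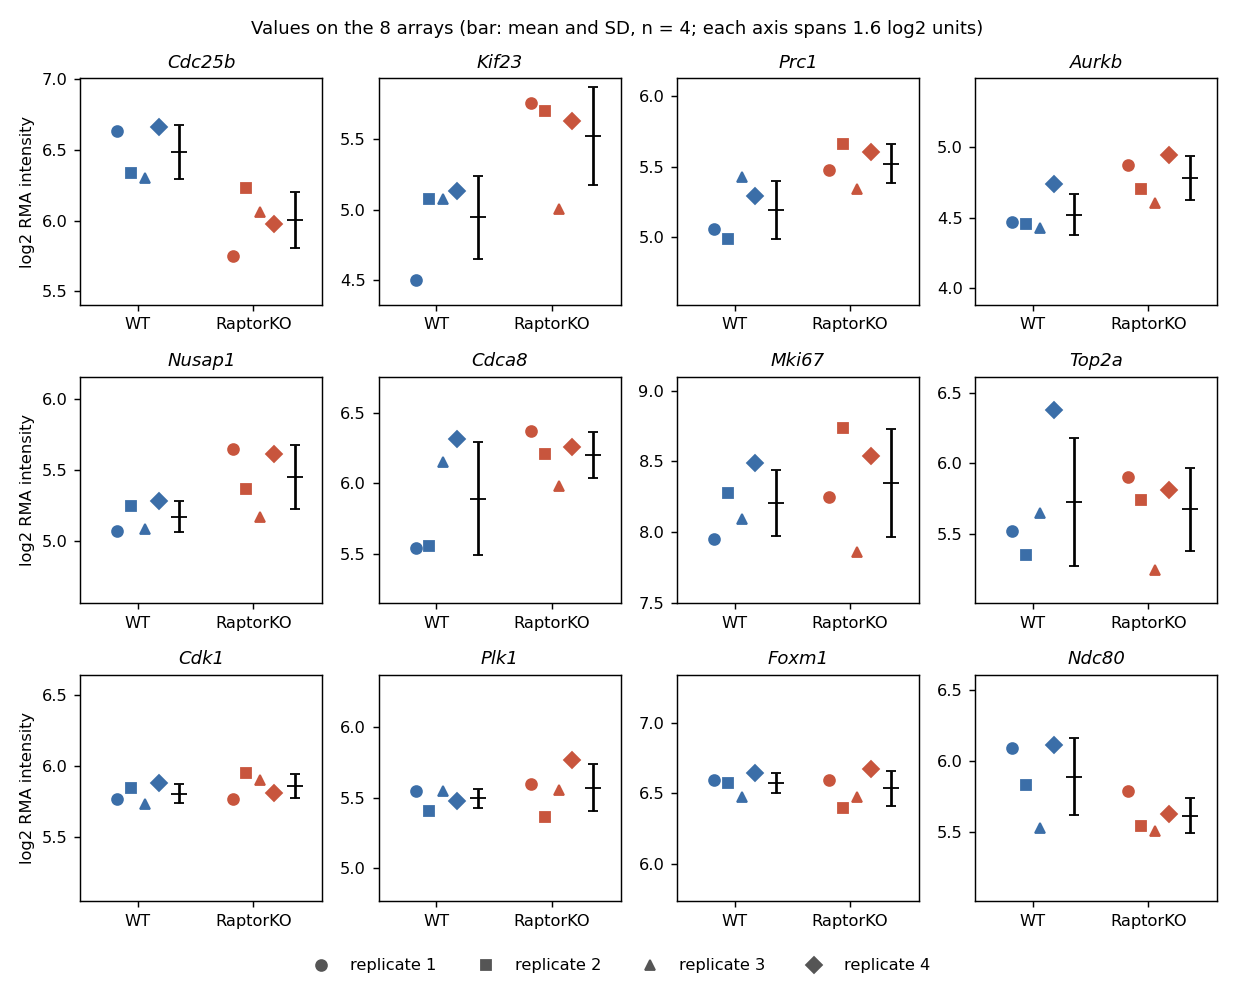
Log2 RMA intensity (y axis) of 12 named genes on each WT (blue) and RaptorKO (red) array, with 1 symbol per replicate number and the mean and SD of 4 arrays beside them; the axes start at different levels and span equal ranges. Only Cdc25b separates the groups fully, while Kif23 does so apart from RaptorKO 3 and Mki67, Top2a and Cdk1 overlap.

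Genes of chromosome structure overlapped between the genotypes. Mki67 encodes Ki-67, the protein used to mark cycling cells. It read 7.95, 8.28, 8.09 and 8.49 in WT and 8.25, 8.74, 7.86 and 8.54 in RaptorKO. RaptorKO 2 was the highest array and RaptorKO 3 the lowest, so the spread within RaptorKO (SD 0.38) exceeded the difference between the means, 0.14 (SE 0.18, 95% interval -0.25 to 0.54, adjusted p = 0.837). Top2a, the topoisomerase that untangles sister chromatids, read 5.52, 5.35, 5.65 and 6.38 in WT and 5.90, 5.74, 5.25 and 5.81 in RaptorKO, with a difference of -0.048 (SE 0.21, adjusted p = 0.959). WT 4 was the highest of the 8 arrays, and without it the difference was 0.17. The condensin subunits Smc2, Ncapg and Ncaph differed by -0.028, 0.066 and 0.17, with adjusted p from 0.555 to 0.954.

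In the group of centrosome and spindle genes 3 of 7 were positive and 4 negative, with a median of -0.016. This split depends on the probe set used. The other tested sets in the group, of Kif11 (0.052), Kif22 (0.24) and Plk4 (0.43), were all positive. Nusap1, which bundles spindle microtubules, read 5.07, 5.25, 5.08 and 5.28 in WT and 5.65, 5.37, 5.17 and 5.61 in RaptorKO. All but RaptorKO 3 lay above every WT array, and the difference was 0.28 (SE 0.12, unadjusted p = 0.0448, adjusted p = 0.363). Aurka, the kinase that matures centrosomes, and Tpx2, its activator on the spindle, had means lower in RaptorKO. Aurka read 5.07, 5.54, 5.58 and 5.33 in WT and 5.41, 5.65, 5.15 and 4.65 in RaptorKO, where its highest and lowest values both lay, and differed by -0.17 (95% interval -0.59 to 0.26, adjusted p = 0.816). Tpx2 read 4.76, 4.99, 4.43 and 4.69 in WT and 4.25, 4.70, 4.53 and 4.84 in RaptorKO. Its groups overlapped, it differed by -0.13 (adjusted p = 0.805), and it exceeded the filter's percentile on only 2 arrays of each group. Of the motors, Kif11, which pushes spindle poles apart, differed by 0.26, the chromokinesins Kif4 and Kif22 by 0.19 and -0.12, and Plk4, the kinase that starts centriole duplication, by -0.016; none was called.

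All 4 members of the chromosomal passenger complex, which corrects kinetochore attachments and then directs cytokinesis, had a higher mean in RaptorKO, and none was called. Their median difference was 0.21. Aurkb, its kinase, read 4.47, 4.45, 4.42 and 4.74 in WT and 4.87, 4.70, 4.60 and 4.95 in RaptorKO, with a difference of 0.26 (SE 0.11, unadjusted p = 0.0442, adjusted p = 0.362). WT 4 lay among the RaptorKO arrays. Aurkb exceeded the filter's percentile on 1 WT and 3 RaptorKO arrays, and its other probe set, under the filter, differed by -0.22. Cdca8, which encodes Borealin, read 5.54, 5.56, 6.16 and 6.31 in WT and 6.37, 6.21, 5.98 and 6.26 in RaptorKO. WT 1 and WT 2 stood below all other arrays, and the difference was 0.31 (95% interval -0.07 to 0.70, adjusted p = 0.516). Birc5 (survivin) differed by 0.15 and the scaffold Incenp by 0.024. Incenp's other tested probe sets differed by -0.17 and 0.10, so its direction depends on the probe set.

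Of 6 centromere and kinetochore genes, which link chromosomes to spindle microtubules, 3 were tested, with 1 positive and 2 negative; Cenpf and Kif2c did not pass the filter. Ndc80, the microtubule-binding subunit of the outer kinetochore, read 6.09, 5.83, 5.53 and 6.11 in WT and 5.79, 5.54, 5.50 and 5.63 in RaptorKO. WT 3 lay at the level of the RaptorKO arrays, and the difference was -0.28 (SE 0.14, 95% interval -0.58 to 0.02, adjusted p = 0.437). Cenpa, the histone H3 variant of centromeres, differed by -0.052 (adjusted p = 0.926) and the kinetochore motor Cenpe by 0.085 (adjusted p = 0.864).

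Among the checkpoint and anaphase genes all 5 tested members were positive, between 0.067 and 0.27, with adjusted p from 0.569 to 0.895. Mad2l1, the checkpoint protein that restrains CDC20, read 6.32, 5.60, 6.42 and 5.87 in WT and 6.47, 6.44, 6.11 and 6.28 in RaptorKO. WT 2 and WT 4 lay below the other 6 arrays, and the difference was 0.27 (SE 0.17, 95% interval -0.10 to 0.65). Ube2c, the ubiquitin-conjugating enzyme of the anaphase-promoting complex, differed by 0.19, Cdc20, its activator, by 0.11, and the checkpoint kinases Ttk and Bub1b by 0.10 and 0.067. Bub1 was not tested; its values, 2.87 to 3.32 in WT and 3.23 to 3.50 in RaptorKO, were under the filter on every array.

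The central spindle and cytokinesis genes had the highest median of the 7 role groups, 0.27 over 4 tested genes, all positive and none called. Kif23 encodes the kinesin of the centralspindlin complex, which builds the midzone of the dividing cell. It read 4.50, 5.08, 5.07 and 5.13 in WT and 5.75, 5.70, 5.00 and 5.63 in RaptorKO. RaptorKO 3 lay among the WT arrays and the other RaptorKO arrays above all of them. The means were 4.95 ± 0.30 and 5.52 ± 0.35 (SD, n = 4 each), a difference of 0.57 (SE 0.18, 95% interval 0.17 to 0.98), or 1.49-fold, which did not pass over all genes (limma, unadjusted p = 0.00922, adjusted p = 0.171). Without RaptorKO 3 it was 0.75 and passed (adjusted p = 0.0464), the only call of a member in any setting tried.

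Prc1, which cross-links the antiparallel microtubules of the midzone, read 5.06, 4.99, 5.43 and 5.29 in WT and 5.48, 5.66, 5.35 and 5.61 in RaptorKO. WT 3 lay above RaptorKO 3, and the difference was 0.33 (SE 0.12, unadjusted p = 0.0202, adjusted p = 0.251). Kif20a, a kinesin that carries passenger proteins to the midzone, differed by 0.21 (95% interval -0.02 to 0.45, adjusted p = 0.445). Racgap1, the partner of KIF23 in centralspindlin, read 5.16, 5.39, 5.67 and 5.58 in WT and 5.10, 5.69, 5.25 and 5.88 in RaptorKO. Its lowest and highest values were both in RaptorKO, and its difference was 0.033 (adjusted p = 0.966). Anln and Ect2, which organise the contractile ring, were under the filter on every array and were not tested. Their means differed by 0.074 and -0.25.

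Several members are represented by more than 1 probe set, and these did not always go the same way. The 40 genes had 71 probe sets, of which 51 passed the filter and 0 were called when every probe set was tested (limma), against 1.12% of 27404 probe sets. Of the 51, 36 were positive and 15 negative, with a median of 0.085. Of 12 genes with several tested probe sets, 7 had both signs. The brightest set of Plk4 differed by -0.016 and its other set by 0.43, and for Kif22 the values were -0.12 and 0.24. For Foxm1 they were -0.035 and 0.18, and for Top2a -0.048 against 0.23 and 0.21. For Bub1b they were 0.067 and -0.12, and for Incenp 0.024 against -0.17 and 0.10. The brightest set of Smc2 differed by -0.028 and its other tested sets by -0.0044, -0.080 and 0.15. Both tested sets of Prc1 (0.33 and 0.17), Cdca8 (0.31 and 0.12), Kif11 (0.26 and 0.052) and Racgap1 (0.033 and 0.060) were positive. Both tested sets of Cenpa were negative (-0.052 and -0.28). Cdc25b had 1 probe set, and the other set of Kif23, under the filter, differed by 0.092.

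Arrays of 1 genotype also differed from each other over the list. Over the 35 tested genes the median deviation from the gene's WT mean was -0.068, -0.060, 0.024 and 0.10 in WT 1 to WT 4 and 0.025, 0.19, -0.0037 and 0.21 in RaptorKO 1 to RaptorKO 4. WT 4 thus stood above RaptorKO 1 and RaptorKO 3. Within WT, WT 4 held the highest value for 18 of 35 genes and WT 1 the lowest for 14, against 25.3% and 19.7% of all tested genes. Within RaptorKO, RaptorKO 2 was highest for 15 genes and RaptorKO 3 lowest for 14, but those arrays were also the highest for 40.3% and the lowest for 32.0% of all tested genes. The median SD between WT arrays was 0.19 for the members and 0.14 for all genes, and between RaptorKO arrays it was 0.19 and 0.18.

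**Figure D4:**
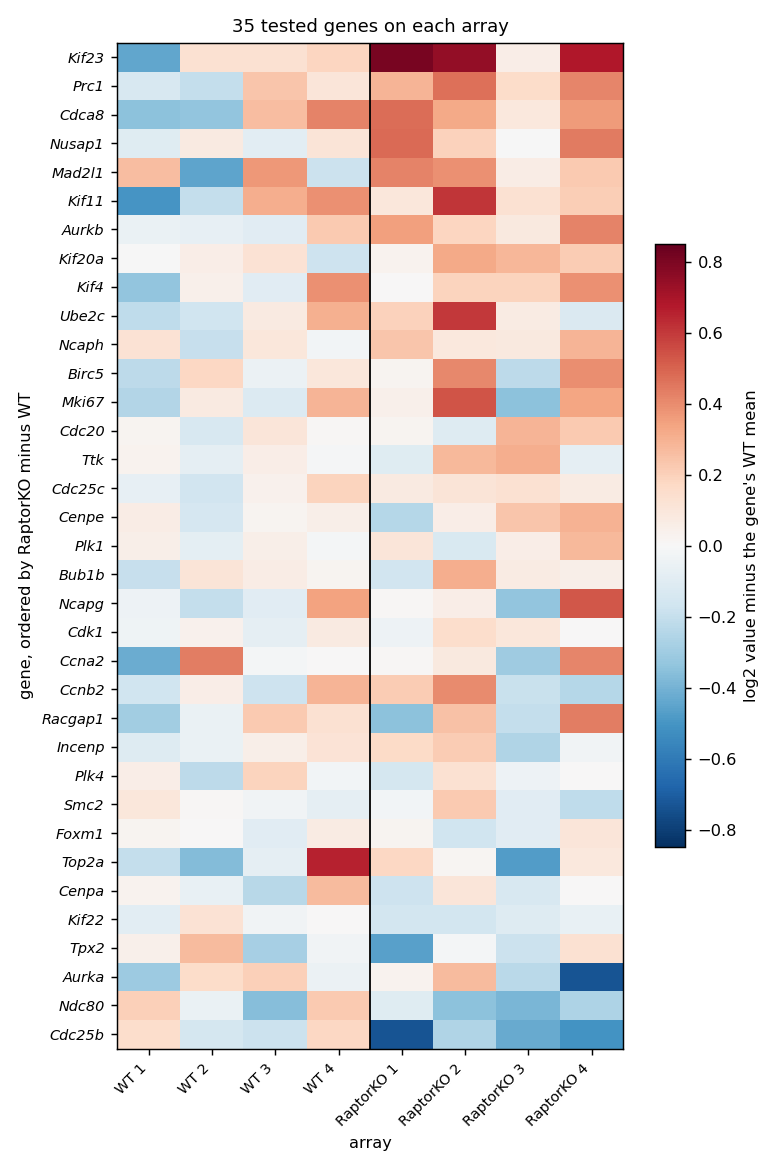
Log2 value minus the gene's WT mean (colour) for the 35 tested genes (y axis, ordered by genotype difference) on the 8 arrays (x axis). The median deviation was 0.19 in RaptorKO 2 and 0.21 in RaptorKO 4 but -0.0037 in RaptorKO 3.

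The genotype difference of several members read unlike in the replicate sets, though no interaction of genotype with set was called. In replicates 1 and 2, 28 of 35 genes were higher in RaptorKO, with a median of 0.16; in replicates 3 and 4, 18 were, with a median of 0.016. The medians of all tested genes were 0.021 and -0.041, and 46.4% and 56.7% of all tested genes were lower in RaptorKO. The interaction of genotype with set called 0 members and 0 genes in all (limma, 0.00% of 11413). At an unadjusted p under 0.05 it held for 8 of 35 members, all with the smaller or more negative difference in replicates 3 and 4, against 11.4% of all tested genes in either direction. These 8 were Cdca8, Kif11, Ube2c, Incenp, Aurka, Ccnb2, Top2a and Kif23. Whatever its p, the interaction was negative for 25 of the 35 members and for 61.1% of all tested genes. Cdca8 differed by 0.74 in replicates 1 and 2 and by -0.12 in replicates 3 and 4 (interaction unadjusted p = 0.00200, adjusted p = 0.334). For Kif11 the values were 0.71 and -0.18, for Ube2c 0.59 and -0.22, for Top2a 0.39 and -0.48, and for Kif23 0.93 and 0.21, with adjusted p from 0.334 to 0.436. Among all 35 genes, 27 had a higher WT mean in replicates 3 and 4 than in replicates 1 and 2, against 54.1% of all tested genes, and 20 a lower RaptorKO mean there, against 59.8%. The myeloid markers were also higher in replicates 3 and 4 of both genotypes (6.33 and 6.34 against 5.40 and 5.87 in WT, 6.66 and 6.69 against 6.01 and 6.08 in RaptorKO). Sex pattern and any other difference between the sets cannot be told apart here.

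**Figure D5:**
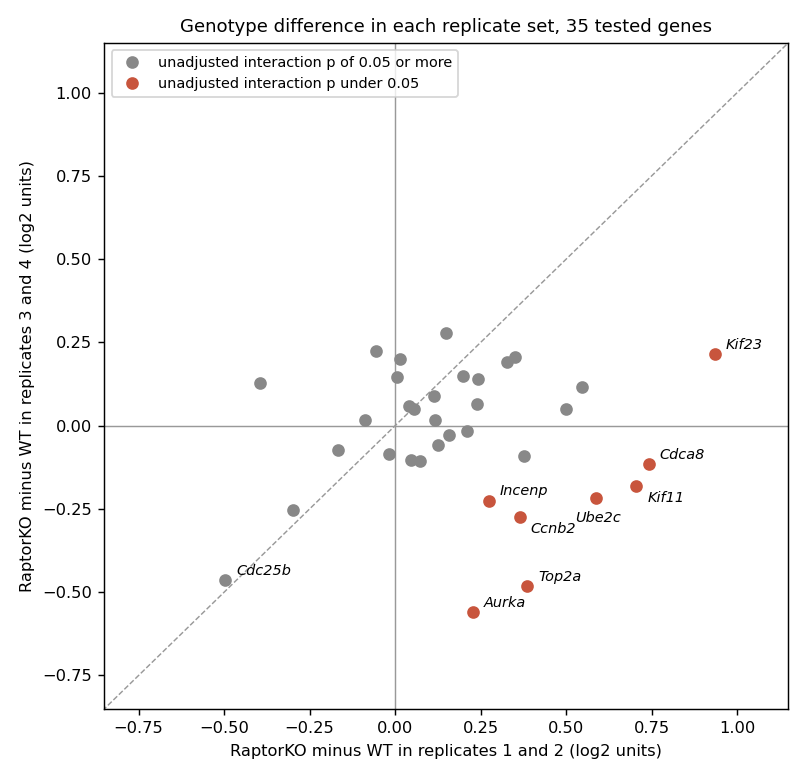
Genotype difference (RaptorKO minus WT, log2 units) within replicates 1 and 2 (x axis) and within replicates 3 and 4 (y axis) for the 35 tested genes; the dashed line marks equal differences and red points have an unadjusted interaction p under 0.05. Cdc25b lies near the line at -0.50 and -0.46, and the red points lie below it, Kif23 among them at 0.93 and 0.21.

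Other genes of the cell cycle came from lists that were also drawn up with earlier results in view. The further mitosis genes and the replication genes had positive medians like the members, and the brakes on division did not. Of all tested genes 1.96% were called, and the groups did not overlap for 8.82%, so single calls in these lists are near the background. Of 84 further mitosis genes 63 were tested and 0 were called, 38 positive and 25 negative, with a median of 0.055. The smallest p belonged to Pttg1, the securin that holds separase inactive, which read 9.72, 9.48, 9.57 and 9.72 in WT and 9.96, 10.03, 10.01 and 9.93 in RaptorKO. Its groups did not overlap, and the difference of 0.36 did not pass (SE 0.10, adjusted p = 0.0966). It passed when its probe sets were averaged (0.42, adjusted p = 0.0270), with quantile normalization (adjusted p = 0.0365) and with an intensity trend (adjusted p = 0.0178). Pkmyt1, a kinase that holds CDK1 inactive before mitosis, differed by 0.41 (adjusted p = 0.136). Of 40 DNA replication and G1/S genes 34 were tested, 23 positive and 11 negative, with a median of 0.051. Chaf1b, a subunit of the chromatin assembly factor that loads histones behind the replication fork, rose by 0.47 (SE 0.10, adjusted p = 0.0364), the single call in that list. The call was lost without any 1 of the 8 arrays (0.41 to 0.51, adjusted p from 0.0534 to 0.117), and averaging its probe sets gave 0.18 (adjusted p = 0.375). It did not pass with the myeloid covariate (0.43, adjusted p = 0.122) or within either replicate set. Of 14 inhibitors and brakes on division 12 were tested, 6 positive and 6 negative, and their median was -0.014. The single call was Btg2, which restrains proliferation: it fell by 0.54 (SE 0.10, adjusted p = 0.0184). Leaving out WT 1, WT 3, WT 4, RaptorKO 1 or RaptorKO 3 ended that call, with adjusted p from 0.0505 to 0.0736. It did not pass with the myeloid covariate (-0.52, adjusted p = 0.0607) or within either replicate set.

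Markers of other cells that divide or that could enter the sort gave no called gene in the fit of all 8 arrays without covariates, but some passed under other settings. Each range here is of the mean log2 value of a list's tested markers on an array. Both tested thymocyte markers were lower, with 7.37 to 7.75 in WT and 6.91 to 7.32 in RaptorKO (Themis -0.37, Cd8b1 -0.77), while Rag1, Rag2, Ptcra and Dntt were under the filter on every array. Cd8b1 passed without WT 1 (-0.96, adjusted p = 0.0319), without RaptorKO 2 (-0.93, adjusted p = 0.0376) and within replicates 3 and 4 (-0.95, adjusted p = 0.0318). Themis passed with array weights (-0.40, adjusted p = 0.0397).

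Of the 5 tested CD8 T and NK cell markers 2 were higher and 3 lower, with 5.76 to 7.07 in WT and 5.97 to 6.51 in RaptorKO; Gzmk, Klrb1c and Ncr1 were under the filter on every array. Nkg7 differed by 0.87 (adjusted p = 0.106) and passed without WT 2 (1.08, adjusted p = 0.0390). Within replicates 3 and 4, 2 markers of this list were called, both lower and Cd8b1 among them. All 3 tested naive CD4 T cell markers were lower, with 9.28 to 9.46 in WT and 9.13 to 9.39 in RaptorKO (Igfbp4 -0.33, Lef1 -0.065). Of the 5 tested B cell markers 4 were higher and 1 lower, with 5.66 to 6.53 in WT and 5.93 to 6.39 in RaptorKO (Pax5 0.44, Cd79a 0.37), and Ebf1 was under the filter on every array.

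Germinal centre and plasma cell markers, 6 tested, were split into 2 higher and 4 lower, with 6.31 to 6.52 in WT and 6.41 to 6.54 in RaptorKO (Jchain 0.79, Prdm1 -0.36; Tnfrsf17 under the filter on every array). Erythroid markers, 4 tested, were split into 3 higher and 1 lower, with 5.39 to 6.05 in WT and 5.91 to 6.29 in RaptorKO. Hba-a1 differed by 1.10 (adjusted p = 0.159) and Slc4a1 by 0.14, while Klf1 was under the filter on every array. The 2 tested neutrophil markers, S100a8 (0.092) and S100a9 (0.19), ranged from 4.87 to 6.73 in WT and from 5.46 to 7.06 in RaptorKO, and Camp, Cpa3, Elane, Mcpt8 and Ngp were under the filter on every array. The part of these cells in the values of the mitosis genes was not tested. Whether regulatory T cells themselves express some of the listed genes was not tested either.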

How the data were processed

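RNA of 8 sorted samples, 4 WT and 4 RaptorKO, was hybridised to 1 array each. The deposited values are log2 intensities per probe set, made with RMA by the authors, per the submitters' processing notes, which name no version. Per the labels' protocols, RNA was amplified by a whole-transcriptome method for small inputs before labelling, which can add spread to weakly expressed genes. RMA normalizes between arrays, which removes differences in total signal, and array medians lay between 5.21 and 5.29, so no further scaling was applied. Group and replicate number came from the titles. Whether samples of 1 genotype are separate mice is not stated in the labels, and p-values then cover only the variation between these samples, which may be technical.

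Of 45141 probe sets, 28898 named 1 gene, 28689 of these matched to current symbols by Entrez identifier (RefSeq table of GRCm38.p6), 551 named several and 15692, array controls included, none. Genotypes were compared with limma 3.58.1 in R 4.3.3 (lmFit, eBayes, no covariates) over 11413 genes, with Benjamini-Hochberg adjustment. A second fit added the interaction with the replicate set. On simulated data with 4 arrays against 4 and 11413 genes, 99% of 100 genes changed by 1 log2 unit and 55% of 100 changed by 0.5 were called, and 6.67% of calls were false. The simulated noise was normal and independent between genes and arrays, with no replicate set difference. These rates therefore need not hold for the real arrays. The members, lists and the rule for named genes (called members, the 4 largest changes each way and fixed examples; from other lists up to 4 called genes, or the 2 with the smallest p) were chosen with earlier results of these data known. A planned search of protein motifs was not run, as no protein table was used here. The number of arrays limits the precision. Figures were drawn with matplotlib 3.10.9.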

Additional observations from a re-analysis of the deposited data

Results flagged for a closer look

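In 70 groups of 4 arrays (35 tested genes in each genotype), 3 had an array far from the other 3 by Dixon's ratio, for which chance alone flags about 1 group in 20. Kif23 read 4.50 in WT 1, against 5.07 to 5.13 on the other WT arrays, and 5.00 in RaptorKO 3, against 5.63 to 5.75 on the other RaptorKO arrays. Aurkb read 4.74 in WT 4, against 4.42 to 4.47 on the other WT arrays.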

How the results depend on the processing

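Members called stayed at 0 in every setting but 1: leaving out single arrays gave 0 to 1 members, the 1 being Kif23, higher in RaptorKO, without RaptorKO 3. The member median stayed positive, from 0.016 within replicates 3 and 4 to 0.16 within replicates 1 and 2; by array left out it ran from 0.042 to 0.12. Of the 35 tested genes, 15 kept their sign in all settings and 20 did not. Quantile normalization, either centring, the filters and the variance models turned no member's sign. With the replicate block, 0 members were called and 175 genes in all, 85 of them lower, against 224 and 130 without it. Same-numbered WT and RaptorKO arrays had correlations of deviations of 0.16, -0.15, 0.11 and 0.026, so the numbers were not taken to pair the samples. The block also changed calls outside the member list: Chaf1b (adjusted p = 0.0896) and Btg2 (adjusted p = 0.0576) did not pass, while Cd8b1 (-0.77, adjusted p = 0.0160), Nkg7 (0.87, adjusted p = 0.0189) and 1 myeloid marker, higher in RaptorKO, did. An intensity trend called 370 genes (147 higher, 223 lower), array weights 205 lower, and the myeloid covariate 77 lower. Within replicates 1 and 2, 9 genes were called (7 higher, 2 lower), and within replicates 3 and 4, 85 (35 higher, 50 lower). Leaving out single arrays gave 98 to 251 genes, 53 to 82 higher and 45 to 173 lower. Within replicates 1 and 2, the sign turned for Aurka (0.23), Cenpe (-0.055), Plk4 (0.072), Smc2 (0.045) and Top2a (0.39). With probe sets averaged per gene, the sign turned for Bub1b (-0.026), Foxm1 (0.046), Incenp (-0.016), Kif22 (0.062), Plk4 (0.21), Smc2 (0.0084) and Top2a (0.13). With the myeloid covariate, the sign turned for Ccna2 (-0.028), Cenpe (-0.0049), Ncapg (-0.0029), Racgap1 (-0.13), Smc2 (0.066) and S100a8 (-0.26). Within replicates 3 and 4, the sign turned for Ccnb2 (-0.27), Cdc25c (-0.015), Cdca8 (-0.12), Foxm1 (0.016), Incenp (-0.23), Kif11 (-0.18), Mki67 (-0.091), Ncapg (-0.027), Racgap1 (-0.058), Tpx2 (0.13), Ube2c (-0.22), Jchain (-0.11), S100a8 (-0.38) and S100a9 (-0.42). With array weights, the sign turned for Incenp (-0.0042), Racgap1 (-0.026) and S100a8 (-0.0026). Leaving out single arrays turned the sign at least once for Aurka (-0.31 to 0.023), Bub1b (-0.015 to 0.14), Ccna2 (-0.090 to 0.19), Ccnb2 (-0.074 to 0.14), Cenpa (-0.13 to 0.039), Foxm1 (-0.081 to 0.010), Incenp (-0.040 to 0.12), Ncapg (-0.089 to 0.20), Plk4 (-0.090 to 0.046), Racgap1 (-0.10 to 0.16), S100a8 (-0.35 to 0.36), S100a9 (-0.11 to 0.46), Smc2 (-0.11 to 0.035) and Top2a (-0.17 to 0.17), with the range over all 8 omissions in brackets; the cause was not tested. The alternatives for genes outside the member list were added after the data were seen. Signal over background limits Aurkb, Tpx2, Ttk and Kif4, which exceeded the filter's percentile on 4, 4, 5 and 6 arrays, and the 5 untested members.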
